A study of Mus musculus with 8 samples.

Results

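The cytosolic ribosomal proteins are the proteins that, together with the ribosomal RNAs, build the large and the small subunit of the cytoplasmic ribosome. Their mRNAs were followed in transformed and in primary peritoneal mast cells (PMCs). Members were chosen by gene symbol alone, as all rows of the gene table that carry an Rpl or Rps symbol with a number, Rplp0, Rplp1, Rplp2 or Rpsa, without the S6 kinases, Rps19bp1 and Rps27l. This gave 92 of 55359 rows, and no expression value was used. The members were 46 canonical proteins of the large subunit, 31 of the small subunit, and 15 further rows that are paralogues, retrotransposed copies or pseudogenes of them. A filter on low counts was passed by 88 members, among them all 77 canonical ones. The paralogues Rpl3l and Rpl10l had no count in any library, Rpl39l had 1 count in WT male 3 and the retrogene Rps23rg1 had 1 count in PMC-306.

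The study sequenced total RNA of 8 untreated cultures, all from wild-type mice of the mixed C57BL/6x129/Sv background. PMC-303 and PMC-306 are lines that arose spontaneously from aged PMC cultures, and each is 1 line represented by 1 library. The 6 primary wild-type (WT) PMC cultures came from 3 female and 3 male mice. The labels call these biological replicates without naming an age, and both lines were kept in less serum and less stem cell factor than the primary cells, so that medium and transformation cannot be told apart. PMC-306 is known to carry a heterozygous deletion of a part of chromosome 4, and PMC-303 an additional chromosome 8 in some of its cells.

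Each canonical ribosomal protein occurs once per ribosome, apart from the acidic stalk proteins, and the mRNAs of this family are among the most abundant of any growing cell. They share a pyrimidine-rich start that places their translation under the control of mTORC1 and of the RNA-binding protein LARP1. Some members have a paralogue whose protein can take the same place in the ribosome, such as Rpl22l1 for Rpl22, Rpl36al for Rpl36a and Rps4l for Rps4x. Mammalian genomes also hold many retrotransposed copies of these genes, so that reads of a parent gene and of a copy can be difficult to separate.

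How far a copy can be told from its parent by sequence decides how its counts can be read. For the copies with the clearest differences between libraries, 30 bases of the coding sequence (GENCODE M39 on GRCm39) are given, with capitals at the bases in which a copy differs from its parent. The stretch starts at base 201 of the coding sequence in the Rps3a genes, at base 21 in the Rps4 genes, at base 69 in Rpl22 and base 54 in Rpl22l1, and at base 9 in the Rpl36a genes.
Rps3a1: tgaagtgagccttgctgatctacagaatga
Rps3a2: tgaagtgagccttgcCgatctacagaatga
Rps3a3: tgaagtgagccttgcCgatctacagaatga
Rps4x: acacctgaagcgtgtagctgctccaaaaca
Rps4l: acacctgaagcgtgtGgcGgcCccaCGCca
Rpl22: ggactgcactcaccctgtagaagatggaat
Rpl22l1: ggacCTTactcaTccAgtagaagatggaat
Rpl36a: cgtgcctaaaacccgccggacattctgcaa
Rpl36al: cgtAccAaaaacccgAAggacTttctgTaa
Rps3a2 differed from Rps3a1 at 4 of 792 aligned bases (99.5% identity) and Rps3a3 at 9 of 795 (98.9%). Of the runs of 31 bases in these copies, 84.8% and 67.2% also occurred in a transcript of Rps3a1, so that a read from such a run does not name its origin. Rps27rt was identical to Rps27 over its 255 coding bases. Rps4l was 80.1% identical to Rps4x over 789 bases, Rpl36al 87.9% identical to Rpl36a over 321 bases, and Rpl22l1 75.5% identical to Rpl22 over 294 bases. For these, 0.613% of the runs in Rps4l and 0 runs in Rpl36al and Rpl22l1 occurred in the parent. Their counts are thus separable from those of the parent by sequence. Other genes and pseudogenes were not searched for these runs.

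The libraries held between 15918758 and 24180226 estimated counts, so that 3 counts, the limit a count of 0 allows, correspond to 0.123 to 0.187 CPM (counts scaled to a common library size), counting error only. The common size was set by the trimmed mean of M-values method (TMM). In the deposited table, a spreadsheet program had rewritten 592 of the 736 count cells of the members, in 83 of the 92 rows, and these were set back to numbers before use. The restored count of a member and the sum of its restored transcripts differed by at most 0.72 counts. Mast cell identity was checked with 14 marker genes, of which 0 were higher and 5 (35.7%) were lower in the lines (limma, adjusted p under 0.05), where 18.3% of all genes were higher and 15.5% lower, and the summed markers were at 45940 and 42078 CPM in PMC-303 and PMC-306 and 55290 to 86568 CPM in the primary cultures. Of 33 markers of B cells, T cells, neutrophils, eosinophils, basophils and mesothelial cells or fibroblasts, 4 had enough counts to be tested and 0 of these were called by limma. The B cell markers summed to 21.4 CPM in PMC-303, 6.48 CPM in PMC-306 and at most 12.6 CPM in a primary culture. In these bulk cultures, fewer cells of a type and less RNA per cell cannot be told apart.

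The share of all counts that falls on the ribosomal protein genes needs no scaling between libraries and was taken first. The members summed to 3.90%, 3.75% and 3.52% of all counts in the female cultures 1 to 3 and to 3.77%, 3.34% and 3.61% in the male cultures 1 to 3. They summed to 3.75% in PMC-303 and to 4.82% in PMC-306. PMC-306 thus lay above all 6 primary cultures, at 1.32 times their mean of 3.65% ± 0.20 (SD, n = 6), whereas PMC-303 lay within their range. The large subunit took 2.92% of the counts in PMC-306 and between 2.03% and 2.38% in the primary cultures, and the small subunit 1.91% against between 1.31% and 1.52%. With 1 library per line these differences have no replicate check.

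**Figure D1:**
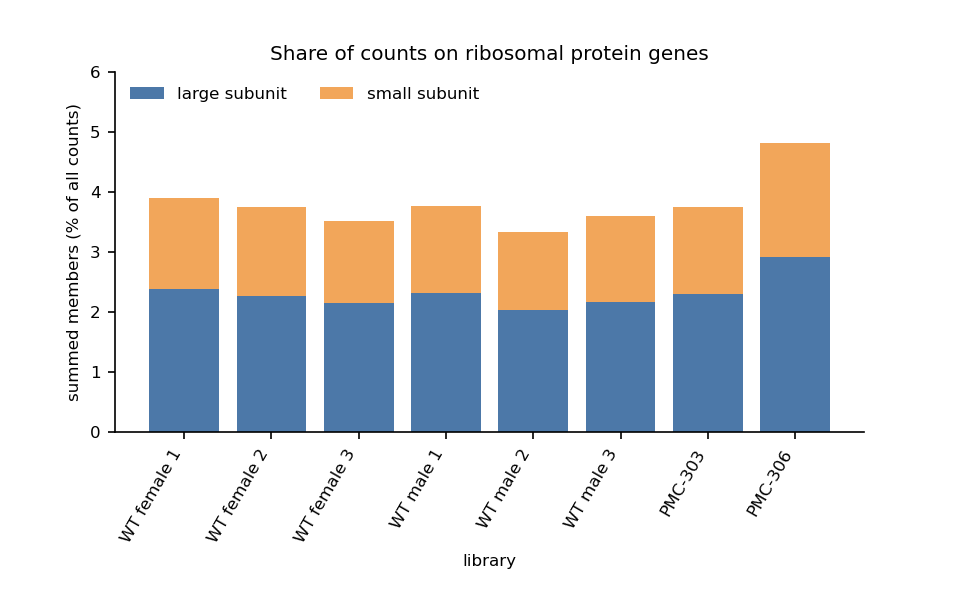
Summed counts of the 92 ribosomal protein rows as a percentage of all counts (y axis) in each library (x axis), divided into large subunit (blue) and small subunit (orange). PMC-306 stands at 4.82%, above the 6 primary cultures at 3.34% to 3.90%, and PMC-303 at 3.75% lies among them.

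Other large fractions of the libraries moved as well. The mitochondrially encoded genes took 2.41% of the counts in PMC-303 and 2.32% in PMC-306, against 4.02% to 6.97% in the primary cultures. When they were left out of the total, the members of PMC-306 stood at 1.29 times the primary mean. The deposited TPM values, which are scaled for transcript length, gave 9.42% of all TPM in PMC-306, 7.33% in PMC-303 and between 5.83% and 7.80% in the primary cultures. Of 10 macrophage markers, the sum was 7.16 CPM in PMC-303 but 441 CPM in PMC-306, with primary cultures at 7.44 to 68.8 CPM. In PMC-306 Adgre1 alone gave 426 CPM, while Csf1r, Cd14, C1qa, C1qc and Mrc1 were at or below 0.255 CPM. C1qb and Mertk were at 0 in all libraries. Whether macrophages were present in PMC-306 or had a part in its shift was not tested.

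Gene by gene, the shift in PMC-306 ran through most of the family. PMC-306 lay above all 6 primary cultures for 59 of the 88 members tested (67.0%) and below them for 4 (4.55%). Among all 14525 genes tested, 31.9% lay above and 32.3% below. PMC-303 lay above the primary cultures for 14 members (15.9%) and below them for 22 (25%), where all genes tested gave 33.4% above and 30% below. Of the canonical large subunit proteins, 35 of 46 were above the primary range in PMC-306 and 10 in PMC-303. Of the canonical small subunit proteins, 21 of 31 were above it in PMC-306 and 1, Rpsa, in PMC-303. Both lines were above the primary cultures for 13 members (14.8%), against 22.9% of all genes, and both below for 1 member (1.14%), Rplp1, against 20.1%.

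On the log2 CPM scale, the median member differed from the primary mean by 0.27 in PMC-306 and by -0.05 in PMC-303, while the median of all genes tested differed by -0.02 and 0.01. The primary cultures' own member medians lay between -0.17 and 0.11. How many members leave the primary range depends on the scaling. With libraries scaled to their upper quartile, 43 members were above the range in PMC-306 and 5 in PMC-303, beside 24.2% and 22.2% of all genes. With library totals the members above it were 72 and 32, beside 39.6% and 39.5% of all genes. A scaling factor moves all genes of a library alike, so the distance between the median member and the median gene cannot follow it. Between such factors that distance is therefore no check on the shift. It was between 0.28 and 0.29 in PMC-306 and -0.06 in PMC-303 with TMM, totals, median of ratios, upper quartile and members. TPM of the same libraries, which are also scaled for the length of each gene, gave 0.29 and -0.06.

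**Figure D2:**
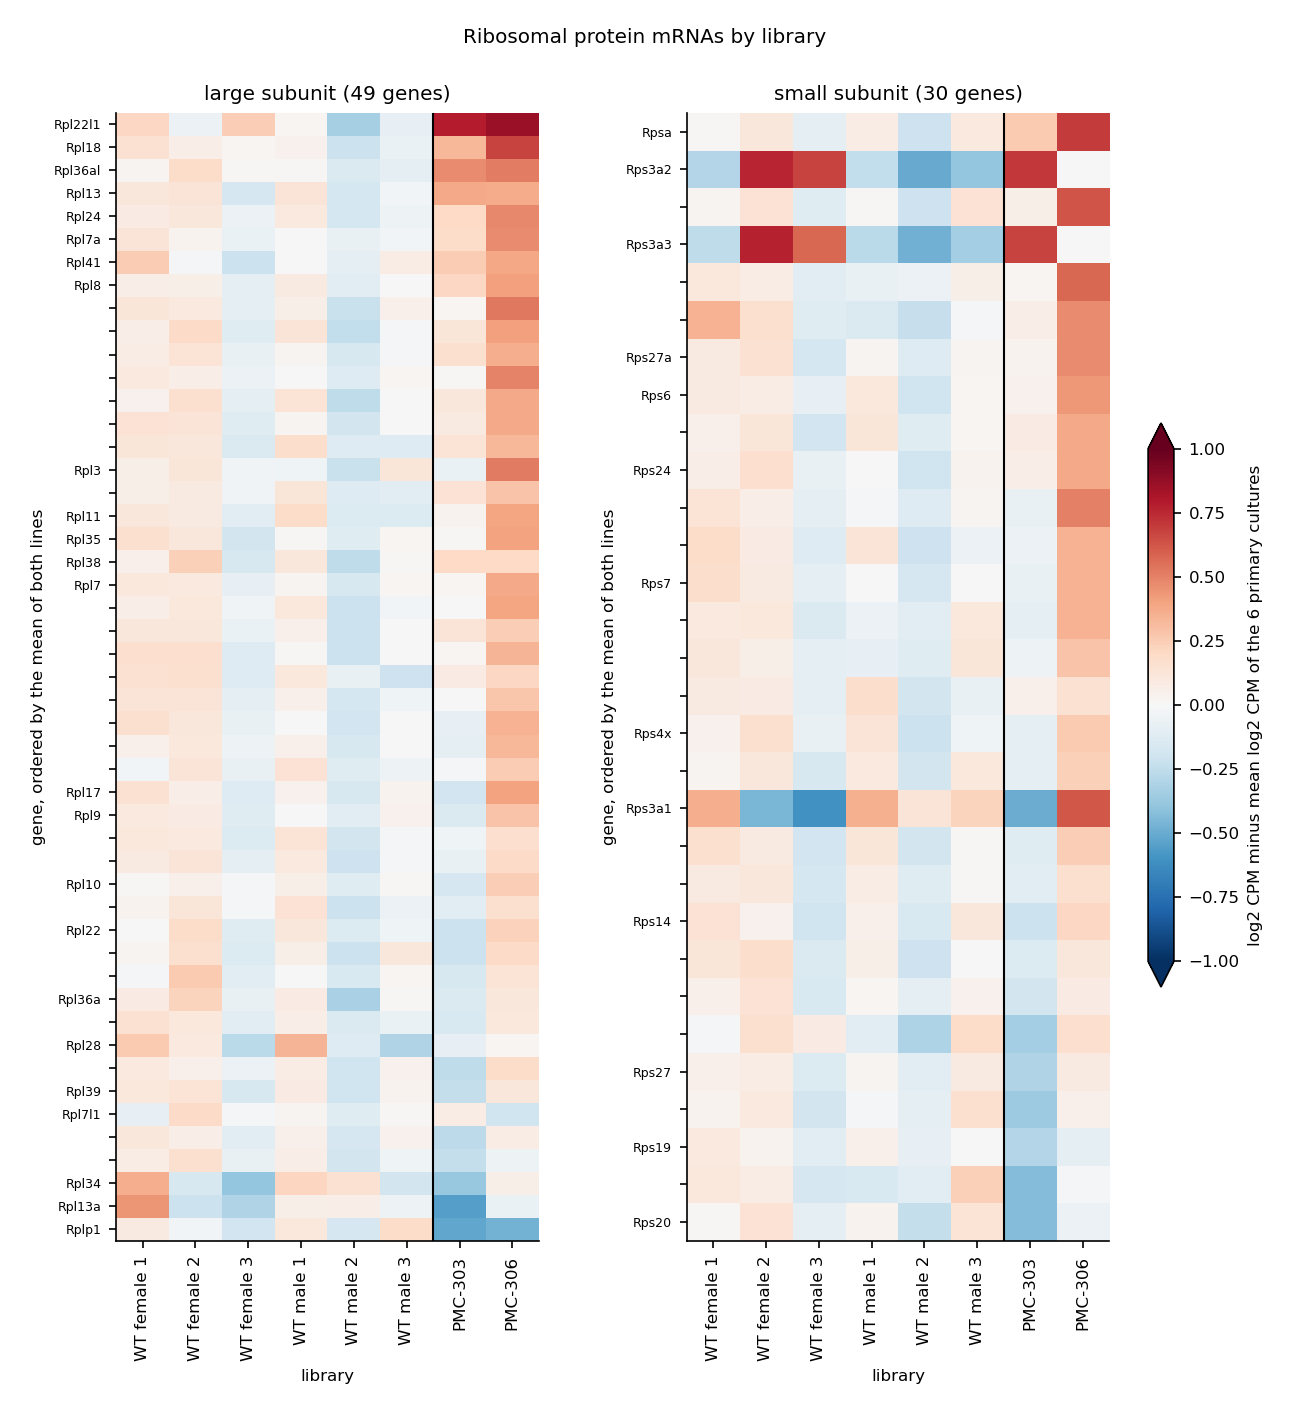
Log2 CPM of each ribosomal protein gene that averaged 10 CPM or more (rows, without a few genes not reported here, and with symbols for most genes named in the text) minus its mean over the 6 primary cultures, in each library (columns), for the large subunit on the left and the small subunit on the right. PMC-306 is red in most rows, PMC-303 is mixed, and the Rps3a rows divide the libraries in a way of their own.

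The lines differed from each other in most members. Of the 83 members with a mean of at least 10 CPM, 77 were higher in PMC-306 than in PMC-303, with a median ratio of 1.26, whereas 39.2% of all 8750 genes at this level were. Among the 6 members that were not higher in PMC-306 were Rpl13, Rpl38, Rpl7l1, Rps3a2 and Rps3a3. In 7 members PMC-303 was below and PMC-306 above all primary cultures, among them Rpl9, Rpl10, Rpl17, Rpl22, Rplp0 and Rps14, and this held for 1.89% of all genes tested. With Rps4l, which moved the other way, 8 of 88 members (9.09%) left the primary range on opposite sides in the lines, where 4.39% of all genes did. Rpl17, whose protein lines part of the peptide exit tunnel, was at 501 (PMC-303) and 758 CPM (PMC-306), with a lowest primary culture at 512, a median of 588 and a highest at 635 CPM. Across these 83 members, the differences of the lines to the primary mean ran together with Pearson's r = 0.50 (Spearman's rho = 0.57). This is a description across genes that share libraries and the same primary mean.

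**Figure D3:**
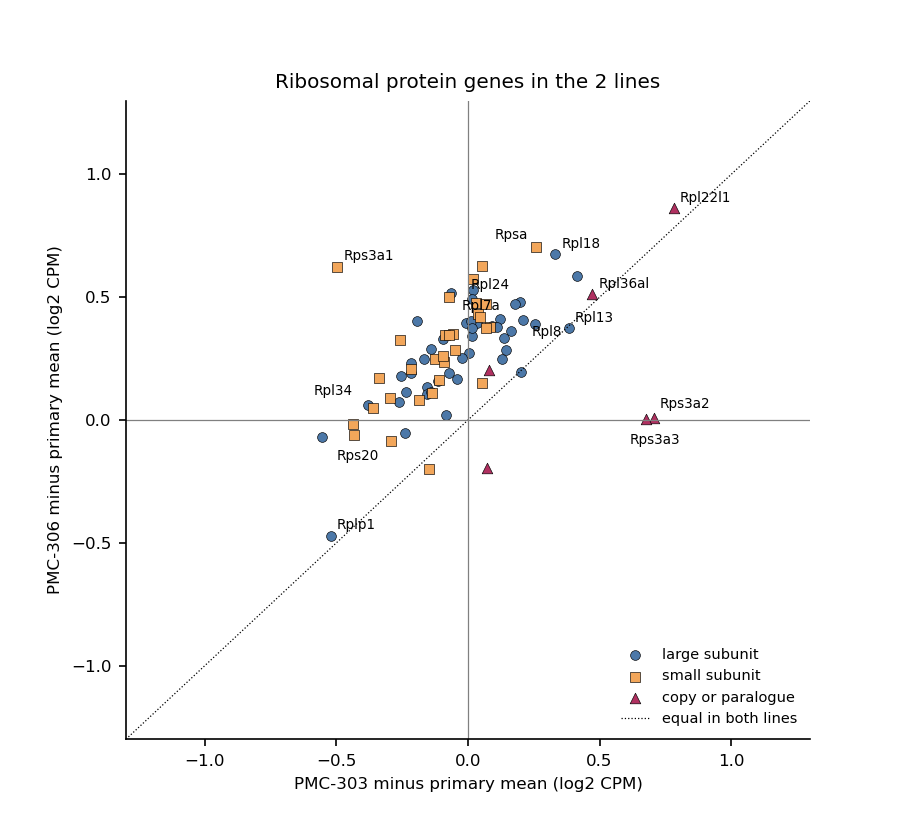
Difference of PMC-303 (x axis) and of PMC-306 (y axis) to the mean of the 6 primary cultures, in log2 CPM, for 83 ribosomal protein genes that averaged 10 CPM or more (points). Of these, 77 lie above the dotted line of equal values, and Rplp1 is low in both lines.

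The members also moved less uniformly in the lines. The interquartile range of the log2 differences over these 83 members was 0.24 in PMC-303 and 0.26 in PMC-306, and between 0.07 and 0.09 in the primary cultures, each of which is part of the mean it is compared with. Against other genes the family was narrow. For 81 members with a mean of at least 100 CPM, the difference between both lines and the primary cultures lay between -0.50 and 0.50 with an interquartile range of 0.25, and for the other 1864 genes of that level the interquartile range was 0.58 and the extremes -8.28 and 5.91.

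Both lines were then tested together against the 6 primary cultures with limma across all 14525 genes. Of the 88 members, 9 were higher (10.2%) and 1 was lower (1.14%) at an adjusted p under 0.05, where 18.3% of all genes were higher and 15.5% lower. The median log2 difference of the members was 0.12 and that of all genes -0.01, and with upper quartile scaling the median of the members turned to -0.04. The call count rests on the lines, which are not replicates of each other. Without PMC-306 it was 4, without PMC-303 17, and without the primary culture WT male 3 it was 6. Without PMC-306, Rpl13, Rpl18, Rpl24, Rpl7a, Rpl8 and Rpsa lost their call, and without PMC-303, Rpl13 and Rplp1 did. Rpl24, Rpl7a and Rpl8 also lost it without WT male 2 or WT male 3, Rpl24 and Rpl7a without WT female 3, Rpl7a without WT male 1 and Rpl13 without WT male 3. The labels call the primary cultures biological replicates, and the fit treats the lines as replicates too. Its p-values thus set a difference against the spread between these cultures and between the lines.

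The largest rise was that of Rpl22l1, the paralogue of Rpl22 on chromosome 3 (chr3:28859585-28861573, plus strand). It was at 96.5 (PMC-303) and 102 CPM (PMC-306), and the primary cultures ran from 44.6 over a median of 55.3 to 66.5 CPM. The groups did not overlap, and the lines were 1.77 times higher (log2 difference 0.82 ± 0.14 SE, limma adjusted p = 0.00312). Its parent Rpl22 on chromosome 4 showed no such pattern, with 173 CPM in PMC-303, 236 CPM in PMC-306 and primary cultures from 183 over 198 to 228 CPM. Rpl22 took 64.2% and 69.8% of the summed CPM of both genes in PMC-303 and PMC-306, below the 73.6% to 80.9% of the primary cultures.

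Rpl36al, the paralogue of the X-linked Rpl36a, was the other member of a pair that rose. Rpl36al (chr12:69228230-69231234, minus strand) was at 172 (PMC-303) and 177 CPM (PMC-306), and at 112, a median of 125 and at most 141 CPM in the primary cultures. Both lines were above all primary cultures, with a log2 difference of 0.49 ± 0.088 SE (limma adjusted p = 0.00348). Rpl36a, with 267 (PMC-303) and 318 CPM (PMC-306), stayed inside the primary range of 235 to 343 CPM. The share of Rpl36a in the pair was 60.8% and 64.3% in the lines and 67.7% to 71.8% in the primary cultures.

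Rpl18, a protein of the large subunit (chr7:45364823-45370260, plus strand), was at 405 (PMC-303) and 514 CPM (PMC-306), against 277, a median of 329 and at most 358 CPM in the primary cultures. It was higher in both lines than in any primary culture, with a log2 difference of 0.50 ± 0.12 SE (limma adjusted p = 0.0119).

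Rpsa, a small subunit protein that is also known as a laminin receptor precursor, was at 855 (PMC-303) and 1163 CPM (PMC-306). Its primary cultures ran from 618 over a median of 736 to 775 CPM, and the log2 difference was 0.48 ± 0.14 SE (limma adjusted p = 0.0257). Rpl13 on chromosome 8, a large subunit protein near the exit tunnel, was at 654 and 650 CPM in PMC-303 and PMC-306, against 445, a median of 517 and at most 550 CPM (log2 difference 0.38 ± 0.11 SE, limma adjusted p = 0.0283). Rpl24, Rpl7a and Rpl8 were called as well, all of the large subunit, with log2 differences of 0.34, 0.33 and 0.31 (limma adjusted p = 0.0356, 0.0292 and 0.0292). In these 3 genes PMC-306 was further from the primary cultures than PMC-303.

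Rplp1 was the member that fell. It encodes an acidic protein of the lateral stalk, which recruits the translation factors to the ribosome together with Rplp2 and the base protein Rplp0. Rplp1 (chr9:61820557-61821872, minus strand) was at 517 (PMC-303) and 535 CPM (PMC-306). The primary cultures ran from 652 over a median of 760 to 843 CPM, so that the groups did not overlap, and the lines were at 0.709 times their level (log2 difference -0.50 ± 0.12 SE, limma adjusted p = 0.0113). Its stalk partner Rplp2 was at 267 and 323 CPM in PMC-303 and PMC-306 and at 250 to 299 CPM in the primary cultures, with a log2 difference of 0.12 ± 0.10 SE and a 95% interval from -0.12 to 0.35. Rplp0 was at 897 and 1213 CPM in the lines and 932 to 1146 CPM in the primary cultures, with a log2 difference of -0.04 ± 0.13 SE (95% interval -0.34 to 0.27).

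**Figure D4:**
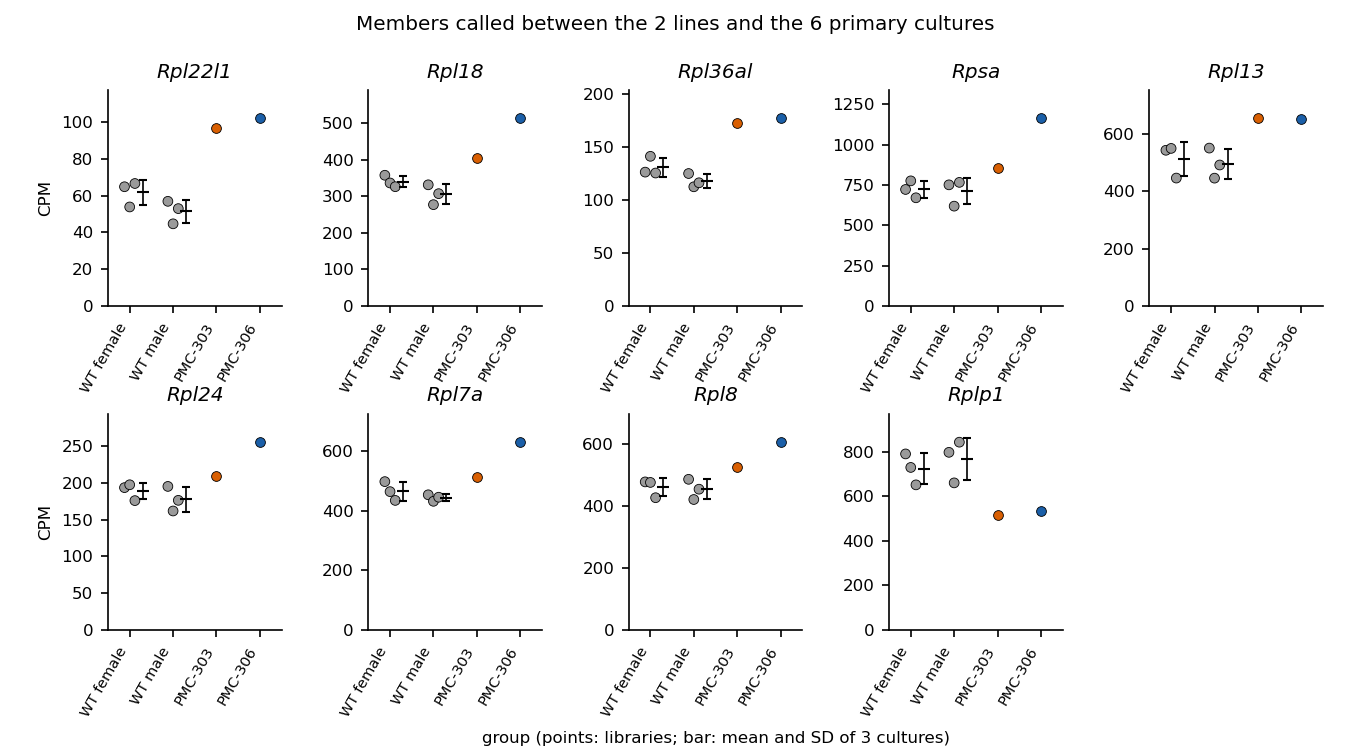
CPM (y axis, from 0) of 9 of the 10 members called between both lines and the primary cultures, with 1 point per library and the mean ± SD of the 3 female and the 3 male cultures. Both lines lie above all 6 primary cultures in 8 of these genes and below them in Rplp1.

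To see which members depart from the family rather than from all genes, the libraries were scaled on the members themselves. With this scaling 8 of 88 members were called, a smaller share than the 3459 of all 14525 genes. The scaling centres the members and not the other genes, so this difference in share is in part built in. Rpl22l1, Rpl18, Rpl36al and Rpsa remained higher, with log2 differences between 0.36 and 0.70, and Rplp1 remained lower at -0.62 (limma adjusted p = 0.00635). Rps19 and Rps20, both of the small subunit, were lower at -0.32 and -0.37 (limma adjusted p = 0.039 and 0.0253). Rpl22l1 and Rpl36al kept an adjusted p under 0.05 in all 19 alternative settings in which they were tested, which the other called members did not.

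Levels between genes were compared in TPM, which are per length. The members with the highest mean TPM were Rplp1 at 2058, Rpl41 at 2000, Rpl10 at 1970, Rpl13a at 1821 and Rps24 at 1620 TPM. Among the canonical members the lowest was Rps16 at 294 TPM. Rpl41, which encodes the shortest protein of the family, was at 648 (PMC-303) and 710 CPM (PMC-306), just above the highest primary culture at 646 CPM (median 538, lowest 468), and was not called (log2 difference 0.32 ± 0.12 SE, limma adjusted p = 0.0672). Rpl13a was at 509 (PMC-303) and 712 CPM (PMC-306), and its primary cultures were spread from 606 over 749 to 1012 CPM, with the highest value in WT female 1. Rps24 was at 749 (PMC-303) and 928 CPM (PMC-306), with primary cultures from 623 over 723 to 805 CPM. Over the 83 members, the mean log2 TPM and the log2 difference of the lines had Pearson's r = -0.37 (Spearman's rho = -0.43), a description across genes of the same 8 libraries.

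The clearest difference between the lines was Rps4l, an autosomal paralogue of the X-linked Rps4x. Rps4l (chr6:148256098-148257431, plus strand) had 847 counts in PMC-303 and 0 counts in PMC-306. The female cultures 1 to 3 had 58, 7 and 7 counts and the male cultures 98, 59 and 33. PMC-303 was at 34.9 CPM, 15.2 times the primary mean of 2.29 ± 1.86 CPM (SD, n = 6) and 6.96 times the highest primary culture. PMC-306 was at least 15.6-fold lower than the primary mean, calculated against 3 counts in its library. The lowest primary cultures, with 7 counts, lay much nearer to this limit than the mean did. Because the lines moved in opposite directions, the fit of both against the primary cultures has no meaning for Rps4l (log2 difference 0.20 ± 1.94 SE). Rps4x was at 1028 (PMC-303) and 1318 CPM (PMC-306), with primary cultures from 945 over 1100 to 1229 CPM, and made up 96.7% of the summed CPM of the pair in PMC-303 and 99.6% to 100% in the other libraries.

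Rps3a1 and its intronless copies Rps3a2 and Rps3a3 divided the libraries without regard to their groups. Rps3a1 (chr3:86045244-86050009, minus strand) was at 336 CPM in PMC-303, 345 CPM in WT female 2 and 311 CPM in WT female 3. It was between 518 and 731 CPM in the other 5 libraries, with PMC-306 the highest. Rps3a2 (chr14:88360453-88361244, minus strand) ran the opposite way, with 283, 295 and 277 CPM in PMC-303, WT female 2 and WT female 3 and 122 to 174 CPM elsewhere. Rps3a3 (chr13:108807137-108807931, plus strand) was at 247, 264 and 230 CPM in those 3 libraries and at 111 to 155 CPM in the others. The annotation lists both copies as processed pseudogenes.

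The share of Rps3a1 in the sum of the 3 genes therefore took 1 of 2 levels, 38.0% to 38.8% in PMC-303, WT female 2 and WT female 3 and 68.5% to 69.2% in the other 5 libraries. The sum itself was even, with 866 (PMC-303) and 1061 CPM (PMC-306), with primary cultures at 751 to 904 CPM. Its log2 difference between both lines and the primary cultures was 0.19 ± 0.11 SE (limma adjusted p = 0.21). As the copies are nearly identical to the parent, the values of the 3 single rows are uncertain, and the same holds for Rps27rt, which was at 6.42 (PMC-303) and 9.22 CPM (PMC-306), with primary cultures at 6.97 to 9.48 CPM.

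**Figure D5:**
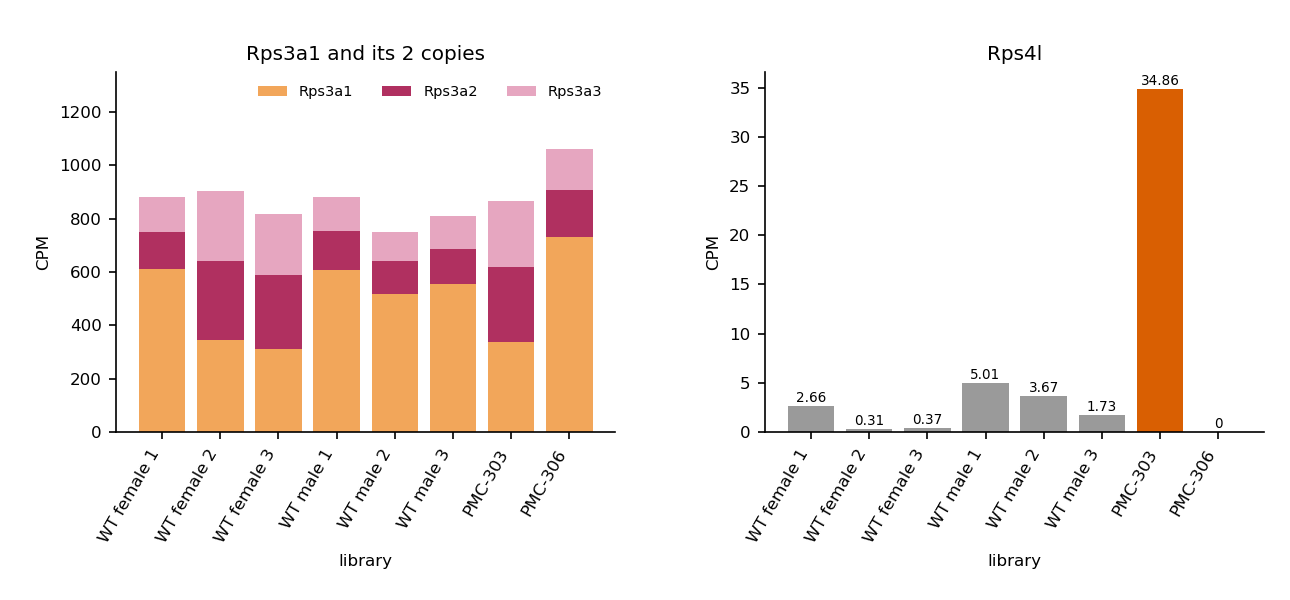
CPM (y axes, from 0) of Rps3a1, Rps3a2 and Rps3a3 as stacked bars on the left and of Rps4l on the right, in each library (x axes). Rps3a1 makes up 38.0% to 38.8% of the stack in WT female 2, WT female 3 and PMC-303 and 68.5% to 69.2% in the others, and Rps4l stands at 34.9 CPM in PMC-303 and at 0 in PMC-306.

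Among the other copies, Rpl7l1, which takes part in the assembly of the large subunit, was at 114 (PMC-303) and 94.9 CPM (PMC-306), with primary cultures at 99.9 to 124 CPM, with a log2 difference of -0.06 (95% interval -0.29 to 0.17). Its parent Rpl7 was at 801 and 1028 CPM in PMC-303 and PMC-306 and at 708 to 853 CPM in the primary cultures. The pseudogene Rps12l1 had reads in WT male 2 and WT male 3 and none in the other 6 libraries, at 2.71 and 1.56 CPM. Of the other parents, Rpl3 was at 756 (PMC-303) and 1132 CPM (PMC-306), with primary cultures at 676 to 860 CPM, and Rpl39 at 442 and 564 CPM, with primary cultures at 453 to 573 CPM. Rpl35 was at 198 and 259 CPM in PMC-303 and PMC-306, with primary cultures at 173 to 220 CPM, and Rps27 at 243 and 318 CPM, with primary cultures at 272 to 318 CPM.

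The members were also grouped by the chromosomes 4, 8 and X. The deletion of PMC-306 covers a part of chromosome 4 only, and which members lie in it was not determined. Chromosome 4 held 5 members, of which 0 were called, where 10.2% of all members tested were called higher and 1.14% lower. For all genes these shares were 18.3% and 15.5%. Of the 5, 4 were above the primary cultures in PMC-306, with Rps6, Rpl11 and Rpl22. This is beside 67.0% of all members and 31.9% of all genes. Rps6, the target of the S6 kinases, was at 857 (PMC-306) and 653 CPM (PMC-303), with primary cultures from 553 over 656 to 684 CPM. Rpl11, which can bind Mdm2 as part of the 5S particle, was at 390 (PMC-306) and 304 CPM (PMC-303), with primary cultures from 270 to 337 CPM. Rpl13 on chromosome 8 was above the primary range in both lines. The X-linked members Rps4x, Rpl10, Rpl36a and Rpl39 had log2 differences between -0.06 and 0.08. Of these 4, 0 were called (lowest limma adjusted p = 0.669), beside the same shares of all members and all genes.

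Among the primary cultures, the members were compared between sexes. Of 87 members tested, 0 were called between female and male cultures by limma (adjusted p under 0.05) and 3 had an unadjusted p under 0.05, while 6 of 13693 genes (0.0438%) were called. The 3 members were Rps3a2, Rps3a3 and Rps4l, with log2 differences of 0.76, 0.73 and -2.02 between female and male cultures (limma adjusted p = 1 for each). Male culture 2 had the lowest median of the members, 0.17 below the primary mean on the log2 scale, and female culture 2 the highest, 0.11 above it. The coefficient of variation over the 6 primary cultures had a median of 8.88% among the 83 members with at least 10 CPM, and was highest for Rps3a2 at 42.1%, Rps3a3 at 39.8% and Rps3a1 at 26.7%, followed by Rpl34 at 19.7% and Rpl28 at 19.0%.

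The transcript table was used to ask which transcripts carried the counts of a member. Of 427 transcripts of members tested, 11 (2.58%) were higher and 6 (1.41%) were lower in the fit of both lines at an adjusted p under 0.05 (limma), where 5.45% and 4.92% of all 45032 transcripts were. In 50 members at least 2 transcripts reached 10 CPM, which gave 143 transcripts, and 43 of these (30.1%) had a share of their gene outside the primary range in both lines on the same side, as did 18.3% of the 6227 transcripts of all genes under this rule. The leading transcript was among them in 14 of 50 members (28%), and in 17.7% of all such genes. Rps7-201, the main transcript of a small subunit protein, took 61.7% of the Rps7 counts in PMC-303 and 63.8% in PMC-306, against 67.1% to 69.3% in the primary cultures. Rpl7-201 took 94.5% and 94.6% in the lines against 90.6% to 91.7%, and Rps27a-201, from the gene that encodes a ubiquitin fused to a ribosomal protein, took 64.3% and 62.0% against 56.1% to 59.6%.

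The shares of some minor transcripts, chosen here with their values known, moved as well. In Rpl10-211 and Rpl13a-205 they moved by more than in the leading transcripts named above. Rpl10-211 took 10.2% of the Rpl10 counts in PMC-303 and 5.88% in PMC-306, and 15.9% to 23.0% in the primary cultures (log2 difference of its CPM -1.23 ± 0.18 SE, limma adjusted p = 0.00426). Rpl13a-205, which is annotated as a target of nonsense-mediated decay, took 10.7% and 9.0% of the Rpl13a counts in PMC-303 and PMC-306 and 15.2% to 18.0% in the primary cultures (log2 difference -1.01 ± 0.23 SE, limma adjusted p = 0.0288). Rpl14-205, of the same class, took 11.1% and 11.5% in the lines and 6.02% to 9.03% in the primary cultures (log2 difference 0.76 ± 0.18 SE, limma adjusted p = 0.0295). Rps24, whose last exons are spliced in a tissue-dependent way, kept its 2 main transcripts close to the primary range, with Rps24-201 at 55.7% and 57.0% in the lines against 50.7% to 55.9%, and Rps24-210 at 38.5% and 39.2% against 38.7% to 40.3%.

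The genes around the ribosome were summarized from further lists, with calls from the same limma fit of both lines at an adjusted p under 0.05. These calls are to be read beside the 18.3% higher and 15.5% lower of all genes. Members of the list of small subunit assembly factors were higher for 17 of 48 tested genes (35.4%) and lower for 0, with the largest rise in Ltv1, an export factor of the small subunit (37.7 CPM in PMC-303, 32.6 CPM in PMC-306, primary cultures 21.6 to 27.6 CPM). Of 60 large subunit assembly factors, 22 (36.7%) were higher and 1 was lower. Npm3, a nucleolar chaperone, was at 13.5 and 17.2 CPM in the lines and 5.01 to 8.02 CPM in the primary cultures, and Sbds, which releases the anti-association factor from the large subunit, at 43.4 and 47.3 CPM against 51.3 to 57.0 CPM. Of 21 tested genes for snoRNP proteins and rRNA modification, 10 (47.6%) were higher and 1 was lower. Nop56, a core protein of box C/D particles, was at 94.7 and 94.5 CPM in the lines and 35.4 to 66.5 CPM in the primary cultures.

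RNA polymerase I genes showed 3 higher (15%) and 2 lower (10%) among 20 tested, which is no more than the 18.3% and 15.5% of all genes. Polr1d was at 87.0 and 98.2 CPM in PMC-303 and PMC-306, with primary cultures at 59.9 to 74.9 CPM, and Polr1h at 14.2 and 15.2 CPM, with primary cultures at 22.4 to 25.3 CPM. Of 7 tested genes linked to the 5S particle and p53, 3 (42.9%) were higher and 1 was lower. This list also holds ribosomal protein members such as Rpl11, so its values are not separate from those of the members. Rpf2, which helps to place the 5S particle, was at 21.7 and 21.6 CPM in the lines and 11.6 to 13.3 CPM in the primary cultures, and Mdm2, the ubiquitin ligase of p53, was at 96.8 and 87.8 CPM against 117 to 152 CPM. The median log2 differences of these 5 lists, in the order given, were 0.17, 0.17, 0.33, 0.11 and 0.25, beside -0.01 for all genes and 0.12 for the ribosomal proteins.

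Of 36 translation initiation factors, 14 (38.9%) were higher and 2 (5.56%) were lower, against 18.3% and 15.5% of all genes, with Eif1ax at 102 and 100.5 CPM in PMC-303 and PMC-306 and 54.9 to 66.9 CPM in the primary cultures. The poly(A)-binding protein gene Pabpc1 was lower, at 342 and 403 CPM against 418 to 557 CPM. Of 15 elongation and termination factors, 6 (40%) were higher and 0 lower, with Eif5a at 393 and 385 CPM in the lines and 193 to 232 CPM in the primary cultures (log2 difference 0.89 ± 0.076 SE, limma adjusted p = 0.000124). On the list of mTORC1 and La-related proteins, 7 of 20 genes (35%) were higher and 1 lower. The largest rise was in Larp7, which binds the small nuclear RNA 7SK rather than ribosomal protein mRNAs, at 44.0 and 34.4 CPM against 13.2 to 17.5 CPM, and the fall was in Tfeb, a regulator of lysosomal genes, at 0.617 and 1.57 CPM against 2.53 to 3.36 CPM. Of 14 tested genes for ribosome quality control, 3 (21.4%, near the 18.3% of all genes) were higher and 1 was lower, with Usp10 at 33.9 and 30.8 CPM against 19.5 to 23.5 CPM and the stalling sensor Map3k20 at 60.4 and 31.1 CPM against 79.5 to 106 CPM.

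The mitochondrial ribosomal proteins, which are encoded in the nucleus and build the ribosome of the organelle, gave another count than their cytosolic counterparts. Of 78 tested, 33 (42.3%) were higher and 1 was lower in the fit of both lines, against 18.3% and 15.5% of all genes. Their median log2 difference to the primary mean was 0.34 in PMC-303 and 0.27 in PMC-306, whereas the cytosolic members had -0.05 and 0.27. Above the primary range were 58 of 78 mitochondrial members in PMC-303 and 53 in PMC-306, and 14 and 59 of 88 cytosolic members, beside 33.4% and 31.9% of all genes. Mrps28 was at 7.0 and 8.84 CPM in the lines and 2.58 to 4.70 CPM in the primary cultures, and Mrps25 at 22.4 and 19.5 CPM against 26.9 to 29.0 CPM. The mitochondrially encoded genes, which include the rRNAs of that ribosome, were higher for 0 and lower for 5 of 15 tested (33.3%), with mt-Rnr2 at 8133 and 6452 CPM in the lines and 21202 to 41078 CPM in the primary cultures.

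Rack1 and Fau, from the list of cytosolic ribosomal proteins with other symbols, were not members. Rack1 was at 822 (PMC-303) and 1126 CPM (PMC-306), with primary cultures at 714 to 853 CPM. Fau was at 243 (PMC-303) and 315 CPM (PMC-306), with primary cultures at 217 to 263 CPM. Of the 3 genes tested on that list, 0 were called by limma (lowest adjusted p = 0.119). Above the primary range were 2 in PMC-306 and 1 in PMC-303, where 31.9% and 33.4% of all genes were. Of 81 annotated ribosomal protein pseudogenes with enough counts, 2 (2.47%) were higher and 4 (4.94%) were lower, both below the shares of all genes of 18.3% and 15.5%. Rps2-ps10 was at 94.0 (PMC-303) and 11.7 CPM (PMC-306), with primary cultures at 7.56 to 10.3 CPM, and Rps19-ps3 at 0.259 and 0.786 CPM against 1.13 to 2.66 CPM. Pseudogene counts carry the same uncertainty as those of Rps3a2 and Rps3a3.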

How the data were processed

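Total RNA of 8 PMC cultures (PMC-303, PMC-306, 3 female and 3 male primary WT cultures) had been sequenced with a stranded kit. According to the submitters' notes and the methods, the authors used Trim Galore 0.6.7, STAR 2.7.9a on GRCm39 and Salmon 1.5.2. Estimated counts of genes and of transcripts were deposited without normalization, and TPM of genes, scaled for length and depth by the authors, were deposited as well. Cells rewritten by a spreadsheet program made up 3.37% of gene counts, 3.22% of transcript counts and 20.8% of TPM values. Counts were set back to numbers with at most 3 decimals. In 5687 TPM cells the point was placed to fit the counts.

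Because the tables as deposited are text in part, tools for raw counts were not used for the main fits. On the restored counts, limma voom was run as an alternative and called 10 members between the lines and the primary cultures. Counts were divided by TMM library sizes, and limma 3.58.1 (R 4.3.3) with a mean-variance trend was fitted on log2(CPM + 0.1) of genes reaching roughly 10 counts in as many libraries as the smaller group holds and a sum of 15, with Benjamini-Hochberg adjustment over all genes. Fold changes are therefore on the scale of CPM plus 0.1, which understates changes of low genes. On simulated counts with 200 changed genes, the fit of lines found 196 and made 11 false calls (14525 genes), and the fit of sexes found 198 and made 13 (13693 genes). The planted changes were larger than the difference of any called member, and all genes were given the same noise. This recovery therefore does not hold for changes of the size seen in the members. Single lines have 1 library and no test. No pair of primary libraries agreed within sampling noise (chi-square per degree of freedom at least 20.6). Copies were aligned over coding sequences of GENCODE M39 transcripts. Library depth was 15918758 to 24180226 counts. No column of values lacked a sample.

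Named genes are the called members with the largest rises and falls (mean of at least 10 CPM, up to 6 each), the 5 members with the highest TPM, paralogues and parents, members on chromosomes 4, 8 and X, the called gene with the largest rise and fall of each other list, and 3 leading transcripts. Rpl24, Rpl7a, Rpl8, the Rps3a genes and others outside this rule were named after their values were seen. Some genes that meet the rule are not reported here, though they remain in the fits and counts. The members and lists were chosen with earlier results of these data known. Columns of the authors' own comparisons were not used. Calculations outside limma used Python 3.11.15, numpy 2.4.6, pandas 2.3.3 and scipy 1.17.1.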

Additional observations from a re-analysis of the deposited data

Results flagged for a closer look

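In 8 members (9.09% of 88) the lines left the primary range on opposite sides, as they did in 4.39% of all 14525 genes. Each line is a single library, and no test of these differences was made. Rps4l was above all 6 primary cultures in PMC-303 (34.9 CPM) and below them in PMC-306 (0 counts). The other 7 were below the primary cultures in PMC-303 and above them in PMC-306, by at most 0.40 on the log2 scale against the primary mean. Among them, CPM in PMC-303 were 1037 for Rpl10, 501 for Rpl17, 173 for Rpl22, 457 for Rpl9, 897 for Rplp0 and 341 for Rps14.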

How the results depend on the processing

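The count of called members was the result most open to the processing. Against 10 with TMM scaling it was 25 with library totals, 5 with the upper quartile (2 higher and 3 lower), 5 with TPM, 6 without a filter on low counts, 2 against the female and 5 against the male primary cultures, and 0 when genes with a rewritten cell were left out, which left 5 members in the test. Leaving out 1 library gave 4 to 17. The median log2 difference of members, 0.12, was 0.25 with TPM and turned to -0.044 with the upper quartile and to -0.051 without rewritten cells. Scaled on the members it was -0.0016, but this scaling evens out the members between libraries and so fixes that value in advance. Leaving out 1 library gave a median of -0.046 (without PMC-306) to 0.27 (without PMC-303). Members of PMC-303 outside the primary range, 36, were 57 with the upper quartile and 62 when scaled on the members. With the 10 most abundant genes left out, the summed members were at 1.24 times the primary mean in PMC-306 and 0.972 times in PMC-303. Over all genes, 4913 were called, 2108 with female and 3007 with male primary cultures and 3082 without rewritten cells. The share of higher calls, 54.1%, was 70.7% with TPM, 67.1% with totals, 40.3% when scaled on the members and 33.7% with the upper quartile. Of 4670 called transcripts, leaving out 1 library left 2729 to 4075.

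The replicate numbers of female and male cultures did not pair them, as deviations of same-numbered cultures correlated with r = 0.40, -0.22 and 0.28. With a replicate block, 0 members and 5 genes were called between the sexes, against 0 and 6 without it. Summing Rps3a1, Rps3a2 and Rps3a3, an alternative added after the data were seen, left 10 members called. Depth limits the silent paralogues, for which a count of 0 allows up to 0.187 CPM.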
